A study of Mus musculus with 12 samples.

Results

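The activity-induced immediate early genes described here are the 10 genes *Fos*, *Fosb*, *Junb*, *Arc*, *Egr1*, *Egr2*, *Egr3*, *Egr4*, *Nr4a1* and *Npas4*. They were picked by name, and every array probe that carried one of these names was taken, which gave 12 probes for the 10 genes out of 34891 named probes for 21186 gene names. The genes were compared between adult mouse cerebellum and hippocampus, and between *En2* knockout (En2KO, *En2*-/-) and wild type (En2WT) tissue of each region. The En2KO mice carried the *En2*tm1Alj allele on both chromosomes, and the En2WT mice were their *En2*+/+ littermates. No treatment is named for them. All were adults of 3 to 5 months and of both sexes, from a mixed 129Sv, C57BL/6 and outbred stock bred into C57BL/6 for 5 or more crosses. The RNA came from the entire cerebellum or hippocampus, with 3 arrays in each of the 4 groups and 12 one-colour arrays in all. The methods name 3 mice per genotype for both regions, so the regions may come from the same animals, and the labels do not tie an array to a mouse. The paper states that surgery was done under chloral hydrate anesthesia, and does not say whether this applied to the dissection of these tissues. Other handling of the mice in the minutes before dissection, on which the level of such genes can depend, was not given in the sources used here.

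Immediate early genes are transcribed within minutes of a stimulus, without the need for new protein. In neurons the stimulus is calcium entry through glutamate receptors and voltage-gated channels, and the signal passes through kinases to CREB, SRF and MEF2, transcription factors already present in the resting cell. Most of these genes encode transcription factors themselves, while *Arc* encodes a protein that acts at the synapse. Their basal level in a brain region is widely read as a trace of recent neuronal activity.

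The promoters are shown because 1 short element recurs in them. RefSeq promoter windows (GRCm38.p6, 250 bases before to 50 after an annotated start) were matched by symbol for 7 of the 10 genes, and for *Arc*, *Egr1* and *Egr3* none was used. The core of the cAMP response element, TGACG on either strand, was found in windows of 7 of these 7 genes, against 23.0% of 27025 mouse genes with windows of the same length. *Egr2* has 5 annotated starts, and some of their windows overlap and share sites, so genes and not windows were counted. The full palindrome TGACGTCA, which contains the core, was in none of the 7 and in 2.03% of all genes. The CArG box, the element bound by SRF, was matched in *Egr2*, at 2 distinct sites over 4 of its windows, against 1.81% of all genes. It was in no other of the 7 genes searched. *Arc*, *Egr1* and *Egr3* were not searched for any element, nor were bases more than 250 before a start. The AP-1 element TGANTCA was in none of the 7, against 8.97% of all. The 120 bases before the start are printed below for 5 genes, 5′ to 3′ on the gene's strand, with cores and CArG boxes in capitals.
*Fos* (chr12:85473770-85473889, plus strand): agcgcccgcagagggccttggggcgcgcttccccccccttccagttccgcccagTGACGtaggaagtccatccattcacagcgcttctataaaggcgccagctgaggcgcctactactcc
*Fosb* (chr7:19310046-19310165, minus strand): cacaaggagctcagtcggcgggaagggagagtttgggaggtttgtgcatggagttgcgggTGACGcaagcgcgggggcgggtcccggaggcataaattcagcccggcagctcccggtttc
*Egr2*, the third annotated start (chr10:67537749-67537868, plus strand): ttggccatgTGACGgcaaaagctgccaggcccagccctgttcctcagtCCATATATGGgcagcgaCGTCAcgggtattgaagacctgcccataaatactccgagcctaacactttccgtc
*Egr4* (chr6:85513590-85513709, minus strand): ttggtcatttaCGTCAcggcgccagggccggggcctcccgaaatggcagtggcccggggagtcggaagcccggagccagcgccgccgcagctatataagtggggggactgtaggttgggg
*Nr4a1* (chr15:101266726-101266845, plus strand): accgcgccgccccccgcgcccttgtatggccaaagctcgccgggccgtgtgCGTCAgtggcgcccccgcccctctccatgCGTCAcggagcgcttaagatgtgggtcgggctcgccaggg
The *Fos* core shown began at position -66 from the start and the *Egr2* CArG box at -72, between cores at -111 and -55. In *Npas4* the cores lay farther out, at -179 and -169. These matches are letters in a window and describe no measured binding.

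Levels are given as log2 intensity, quantile normalized over the 12 arrays, so that a difference of 1 is a 2-fold change, and a level cannot be compared between probes. Between 62.3% and 73.0% of the spots of an array were well above the local background by the scanner software's test, and no spot was saturated. The regions differed in their neuron markers as labelled: 10 of 10 cerebellar neuron markers, among them *Gabra6*, were lower in the hippocampus, and 9 of 10 hippocampal ones were higher. The *En2* probe read 13.80 to 14.61 in En2WT and 14.08 to 14.81 in En2KO cerebellum. It lies in the 3′ part of the transcript, which the allele keeps, so it does not check the genotype. Each array slide held 1 array of every group, always at the same place for a group, so that place on the slide and group cannot be told apart.

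The immediate early genes were higher in the hippocampus than in the cerebellum, with the exception of *Fos*. Of the 10 genes, 9 rose in the hippocampus (10 of the 11 probes tested) and none was lower (adjusted p under 0.05, limma over 25479 probes, 6 against 6 arrays). The test took the 12 arrays as independent, and a fit with the replicate number as a block changed none of these calls. The background for a call in this direction was 18.5% of all probes tested, and 20.1% were called lower. For each of the 10 probes called, every hippocampal array lay above every cerebellar array, which was so for 10% of all probes. The median difference over the 10 genes was 1.83 on the log2 scale, against -0.02 over all probes. The same 9 genes were called within En2WT, where 13.7% of all probes were higher, and within En2KO, where 12% were. In whole tissue a difference of this kind cannot be told apart from a different share of the cells that express the gene.

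**Figure D1:**
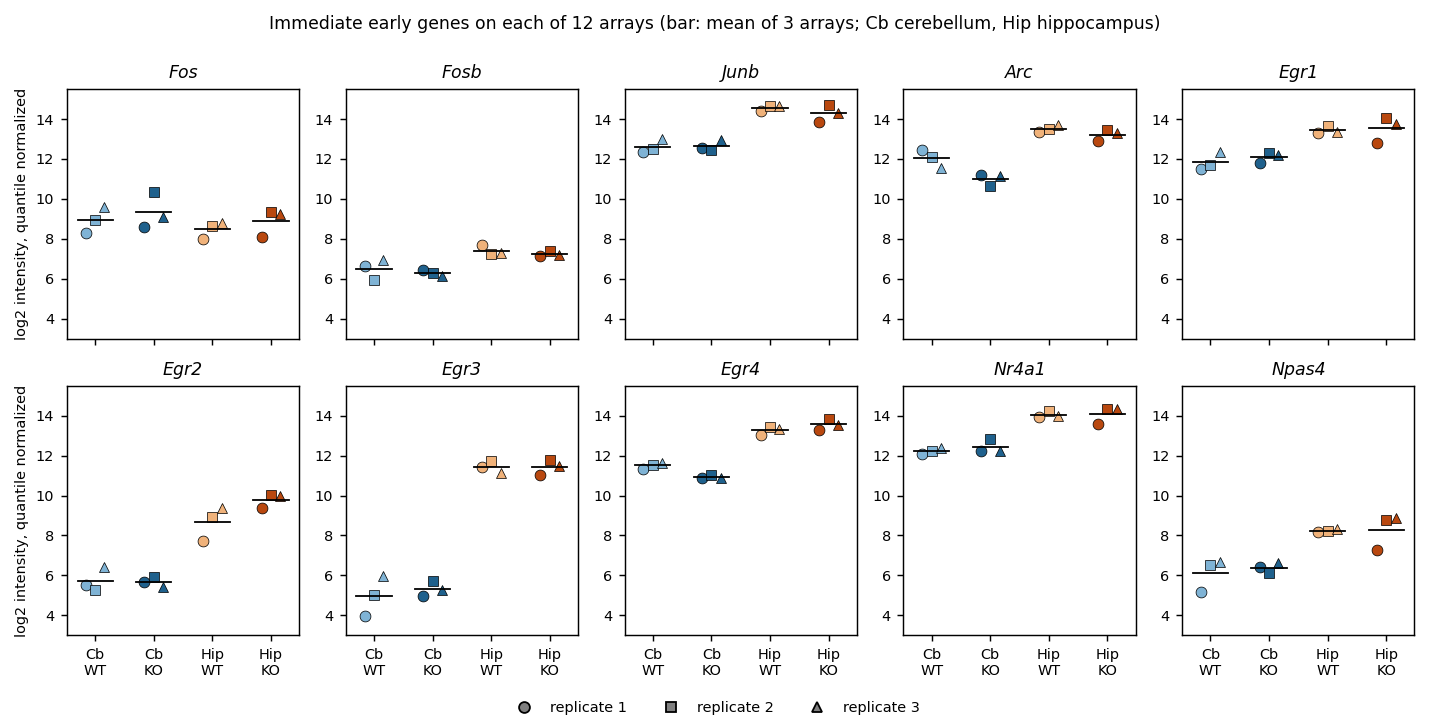
Quantile normalized log2 intensity (vertical axis) of the 10 genes on each of the 12 arrays, by region and genotype (horizontal axis; Cb, cerebellum; Hip, hippocampus). Symbols mark the replicate number, which is also the slide, and bars the mean of 3 arrays. The hippocampal arrays lie above the cerebellar arrays for every gene but *Fos*.

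Among the zinc finger factors of the Egr family, *Egr3* differed most. *Egr3* was at 11.42, 11.73 and 11.15 in En2WT and 11.03, 11.76 and 11.45 in En2KO hippocampus, and at 3.94, 5.01 and 5.95 in En2WT and 4.98, 5.71 and 5.26 in En2KO cerebellum. The hippocampal arrays formed a narrow band far above the cerebellar arrays, of which 5 of 6 were well above background. The difference was 6.28 ± 0.30 (SE, n = 6 and 6; adjusted p = 1.32e-08), or 77.8-fold, the largest of the 10 genes. A second *Egr3* probe, near the start of the transcript, was well above background on 0 of 6 cerebellar arrays, 1 of 3 En2WT and 2 of 3 En2KO hippocampal arrays, and was not tested.

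*Egr2*, the family member known from hindbrain and Schwann cell development, was next. It was at 7.73, 8.92 and 9.40 in En2WT and 9.35, 10.03 and 9.99 in En2KO hippocampus, and at 5.54, 5.26 and 6.43 in En2WT and 5.67, 5.92 and 5.42 in En2KO cerebellum. The lowest hippocampal array was thus above the highest cerebellar array, and the regions differed by 3.53 ± 0.29 (adjusted p = 1.63e-06), or 11.6-fold.

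*Egr4* and *Egr1* (also called *Zif268*) were bright in both regions. *Egr4* was at 13.04, 13.46 and 13.31 in En2WT and 13.30, 13.84 and 13.55 in En2KO hippocampus, and at 11.34, 11.53 and 11.65 in En2WT and 10.89, 11.02 and 10.90 in En2KO cerebellum. It had the smallest error of the set, with a difference of 2.19 ± 0.14 (adjusted p = 1.34e-07), or 4.58-fold. *Egr1* was at 13.32, 13.63 and 13.34 in En2WT and 12.82, 14.08 and 13.73 in En2KO hippocampus, and at 11.48, 11.69 and 12.33 in En2WT and 11.80, 12.28 and 12.21 in En2KO cerebellum. Its regions did not overlap either, but the highest cerebellar array (12.33) came close to the lowest hippocampal array (12.82), and the difference was 1.52 ± 0.22 (adjusted p = 0.000195), or 2.87-fold.

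The AP-1 subunits, which pair as Fos and Jun proteins to bind DNA, did not move as a block. *Junb* was at 14.40, 14.64 and 14.64 in En2WT and 13.86, 14.72 and 14.33 in En2KO hippocampus, and at 12.33, 12.48 and 13.02 in En2WT and 12.56, 12.47 and 12.95 in En2KO cerebellum. Its difference was 1.80 ± 0.18 (adjusted p = 8.85e-06), and a second *Junb* probe, whose target overlaps that of the first, gave 1.92 ± 0.19. *Fosb* was at 7.70, 7.24 and 7.30 in En2WT and 7.16, 7.41 and 7.21 in En2KO hippocampus, and at 6.63, 5.92 and 6.94 in En2WT and 6.43, 6.28 and 6.16 in En2KO cerebellum. It had the smallest difference among the genes that rose, at 0.94 ± 0.18 (adjusted p = 0.00114), or 1.92-fold.

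*Fos*, the gene most often used as a marker of active neurons, was the exception. It was at 7.98, 8.62 and 8.82 in En2WT and 8.11, 9.35 and 9.25 in En2KO hippocampus, and at 8.32, 8.96 and 9.60 in En2WT and 8.57, 10.33 and 9.11 in En2KO cerebellum. The arrays of the regions overlapped, and the estimate had the opposite sign to the other genes, at -0.46 ± 0.34 (95% CI -1.21 to 0.29; adjusted p = 0.318). The interval ends below the lower end of the interval of *Fosb* (0.56 to 1.33), although the genes were not tested against each other. Its SD between arrays was 0.44 to 0.90 within a group.

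The synaptic gene *Arc* was at 13.35, 13.51 and 13.70 in En2WT and 12.88, 13.46 and 13.31 in En2KO hippocampus, and at 12.46, 12.10 and 11.55 in En2WT and 11.22, 10.62 and 11.12 in En2KO cerebellum. It rose by 1.86 ± 0.19 in the hippocampus (adjusted p = 8.23e-06), or 3.62-fold. *Nr4a1*, an orphan nuclear receptor, was at 13.92, 14.24 and 13.99 in En2WT and 13.57, 14.33 and 14.35 in En2KO hippocampus, and at 12.07, 12.23 and 12.39 in En2WT and 12.22, 12.82 and 12.24 in En2KO cerebellum, a difference of 1.74 ± 0.17 (adjusted p = 8.61e-06). *Npas4*, a neuron-restricted factor that responds to calcium entry, was at 8.15, 8.25 and 8.34 in En2WT and 7.25, 8.78 and 8.85 in En2KO hippocampus, and at 5.15, 6.54 and 6.69 in En2WT and 6.41, 6.14 and 6.62 in En2KO cerebellum. Its difference was 2.01 ± 0.32 (adjusted p = 0.000335), and its levels were among the most scattered, with 1 low array in En2KO hippocampus and another in En2WT cerebellum.

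**Figure D2:**
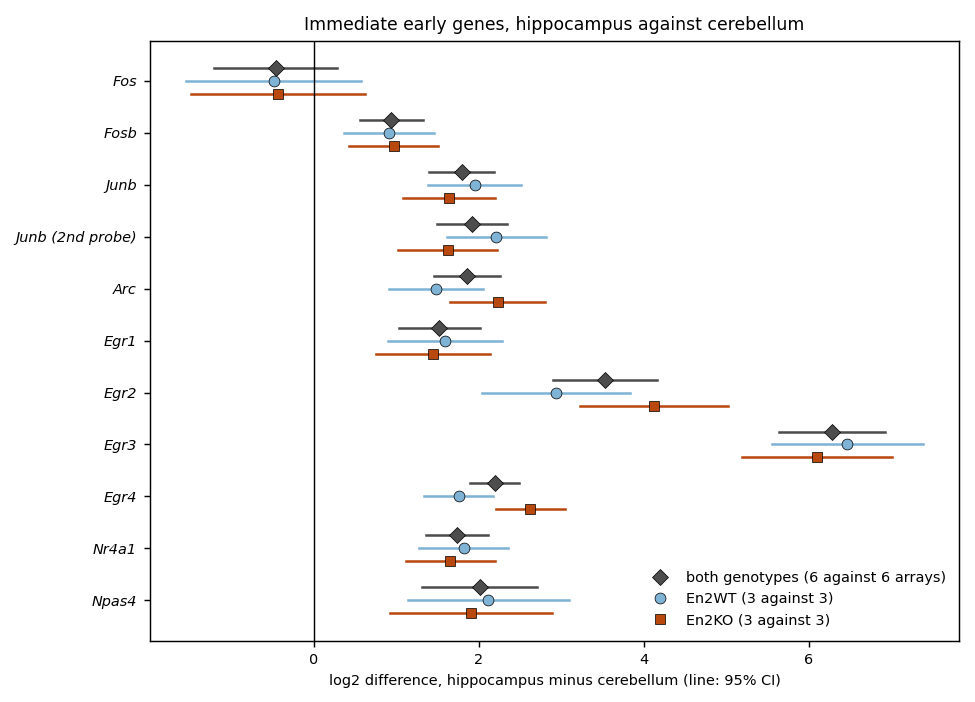
Log2 difference of hippocampus minus cerebellum (horizontal axis) for the 11 probes tested, with 95% confidence intervals, over both genotypes (diamonds), within En2WT (circles) and within En2KO (squares). The intervals lie above 0 for every gene but *Fos*, and *Egr3* stands farthest out at 6.28.

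The other rapid activity genes did not share the direction as a whole. In a list of 25 tested other rapid activity genes, 6 rose and 6 fell in the hippocampus and 13 did not pass the test, with a median of -0.05. Those that rose most were the kinase *Plk2* (3.02 ± 0.18), the AP-1 subunit *Fosl2* (2.54 ± 0.31) and *Nr4a2*, a relative of *Nr4a1* (2.27 ± 0.32). Those that fell most were *Ier3* (-1.33 ± 0.13), *Ier2* (-0.94 ± 0.17) and the adhesion gene *Amigo3* (-0.62 ± 0.15).

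Of 17 later activity genes, which are induced after the rapid wave, 10 rose and 3 fell, with a median of 1.19. *Ptgs2*, which encodes cyclooxygenase 2, was well above background on 6 of 6 hippocampal and 0 of 6 cerebellar arrays. It was higher in the hippocampus (adjusted p = 3.98e-11), by 57.1-fold with a floor set on the cerebellar level. For this floor the cerebellar level was replaced, on each array, by the lowest signal among probes well above background where that was higher. The floor is not a detection limit, so the fold depends on it and is no strict lower bound. *Rasgrp1*, an exchange factor for Ras, was higher by 4.05 ± 0.17 and the pentraxin *Nptx2* by 2.62 ± 0.19. Of the 3 that fell, the opioid precursor *Penk* was at -2.09 ± 0.20, the prohormone convertase *Pcsk1* at -0.99 ± 0.18 and the granin *Scg2* at -0.67 ± 0.18.

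Among 25 kinases and factors upstream of the response, 13 rose and 3 fell, with a median of 0.64. The genes that rose most were *Camk2a*, a calcium-dependent kinase of forebrain excitatory neurons (4.32 ± 0.22), *Mef2c* (2.21 ± 0.18) and the SRF cofactor *Mkl1* (1.78 ± 0.16), and the 3 that fell were *Camk4* (-1.10 ± 0.27), *Rps6ka3* (-0.91 ± 0.14) and *Creb1*, which encodes CREB (-0.46 ± 0.15). In the stress and glucocorticoid list 3 of 11 rose, with *Fkbp5* at 1.02 ± 0.27, and 3 fell. Of the other cell types, 8 of 8 microglial markers rose in the hippocampus, 5 of 8 astrocyte and 4 of 7 oligodendrocyte markers fell, and their summed intensities ranged from 10092 to 16662 in hippocampus and 3791 to 7373 in cerebellum for microglia. The part of these cell types in the differences of the immediate early genes was not tested.

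**Figure D3:**
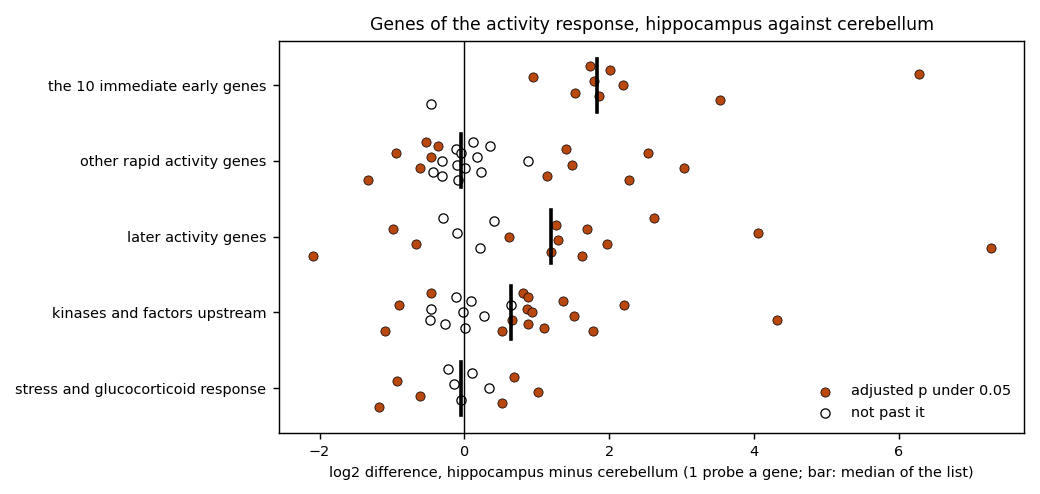
Log2 difference of hippocampus minus cerebellum (horizontal axis) for each tested gene of the 10 immediate early genes and of 4 other lists of the activity response (rows). Filled points passed the adjusted p of 0.05, open points did not, and black bars mark the median of a list, which was 1.83 for the 10 genes and -0.05 for the other rapid activity genes.

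Between genotypes, no immediate early gene passed the test in the cerebellum. Of 11 probes tested 0 were called by limma, against 0.579% of all 25040 probes, and 2 of the 11 had an unadjusted p under 0.05, as had 8% of all probes. These were *Arc* and *Egr4*, both lower in En2KO. *Arc* was lower in each of the 3 En2KO cerebella (11.22, 10.62 and 11.12) than in any En2WT cerebellum (12.46, 12.10 and 11.55), with a difference of -1.05 ± 0.29 (95% CI -1.72 to -0.37, adjusted p = 0.316), or 2.07-fold. Within slides the difference was -1.24, -1.48 and -0.42. *Egr4* gave -0.57 ± 0.19 (95% CI -1.02 to -0.12, adjusted p = 0.463), with 3 of 3 within-slide differences negative, at -0.45, -0.51 and -0.75. Groups that did not overlap were found for 13.6% of all probes, and for 2 of the 11 here. By the rank product of the study's methods, a permutation test without adjustment for the number of probes, *Arc* was called lower (P = 0.00379 at a limit of 0.01) and no other of the 11 was called, against 4.42% of all probes called in either direction.

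The remaining 8 genes overlapped between genotypes in the cerebellum. Their estimates ran from -0.21 for *Fosb* to 0.38 for *Fos*, and the intervals were wide, that of *Fos* reaching from -0.75 to 1.51 and that of *Egr3* from -0.75 to 1.44. With 3 arrays per group a 2-fold difference stayed inside the intervals of *Fos*, *Egr3* and *Npas4* (upper end 1.19). In the same comparison no gene of the other rapid, later, upstream or stress lists passed the test, and the cerebellar neuron markers were negative in 8 of 10, with a median of -0.35 and no call. Their summed intensity was 371543 to 509363 in En2WT and 323790 to 345925 in En2KO cerebellum. Choroid plexus markers were positive in 7 of 7 (median 0.31, *Ttr* at 0.89) and endothelial markers negative in 7 of 8 (median -0.26), both without a call. The part of these cells in the values of *Arc* and *Egr4* was not tested.

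In the hippocampus 0 of the 11 probes were called between genotypes by limma, against 2.15% of 23764 probes, and 1 had an unadjusted p under 0.05, as had 21.2% of all probes. That was *Egr2*, with En2WT at 7.73, 8.92 and 9.40 and En2KO at 9.35, 10.03 and 9.99. The groups touched, since the lowest En2KO array was just under the highest En2WT array. The difference was 1.11 ± 0.41 (95% CI 0.16 to 2.07, adjusted p = 0.187), or 2.16-fold, and was 1.62, 1.12 and 0.59 within slides. The rank product called *Egr2* higher (permutation P = 0.00295 at a limit of 0.005) and none of the other 10 probes, against 4.26% of all probes called in either direction. Without the En2WT array of replicate 1 the difference was 0.64. The paper lists *Egr2* among its differentially expressed hippocampal genes, as higher in En2KO. It also ran qPCR on pooled RNA and reports a significant change of *Egr2* there. At the same time it names *Egr2* as the exception to the correlation between qPCR and arrays. Its text gives no direction for the qPCR change.

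None of the 11 probes separated the genotypes in the hippocampus without overlap, whereas 27.8% of all probes did. By the brighter probe of each gene, the estimates of the other 9 genes lay between -0.30 for *Arc* and 0.43 for *Fos*. Thalamic marker genes moved in this comparison: 8 of 8 were positive in En2KO, with a median of 0.88, and 2 of 8 rose, *Ramp3* (1.58 ± 0.28, adjusted p = 0.0362) and *Rgs16* (1.21 ± 0.21, adjusted p = 0.0361). Their summed intensity was 6439 to 9861 in En2WT and 12955 to 18910 in En2KO hippocampus. The marker lists were chosen with earlier results of these data known, so these counts describe the arrays and are no independent test. Endothelial markers were negative in 8 of 8, with a median of -0.62 and no call. Also without a call, hippocampal neuron markers were negative in 7 of 10 and positive in 3 (median -0.28). Microglial markers were negative in 6 of 8 and positive in 2 (median -0.67), and oligodendrocyte markers negative in 8 of 8 (median -0.27). Astrocyte markers were negative in 5 of 8 and positive in 3 (median -0.19), and blood markers positive in 3 of 4 (median 0.22). Choroid plexus markers were negative in 7 of 7, also without a call, but their summed intensity was 93188, 4402 and 25624 in En2KO, against 22849 to 58416 in En2WT hippocampus. Their mean log2 difference from En2WT was -0.84, and without the En2KO array of replicate 2 it was 0.29. The part of these lists in the *Egr2* difference was not tested.

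**Figure D4:**
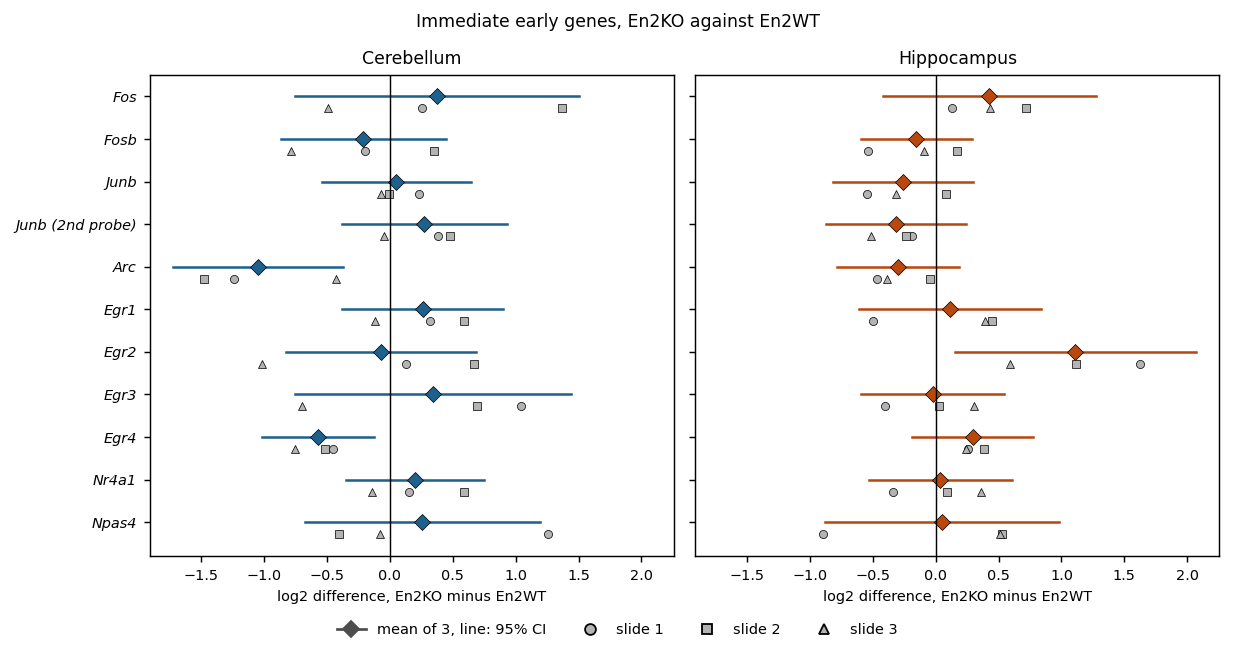
Log2 difference of En2KO minus En2WT (horizontal axis) in cerebellum (left) and hippocampus (right) for the 11 probes tested. Diamonds are the difference of the means of 3 arrays with its 95% confidence interval and small grey symbols the difference within each slide. The 95% interval leaves out 0 for *Arc* and *Egr4* in cerebellum and *Egr2* in hippocampus, none of which passed after adjustment.

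A rapid activity gene outside the set did pass in the hippocampus. *Sik1*, a kinase that CREB induces and that restrains CREB's cofactors, was at 7.29, 7.67 and 7.16 in En2WT and 8.96, 9.12 and 8.81 in En2KO hippocampus. It rose by 1.59 ± 0.20 (adjusted p = 0.012), or 3.01-fold. This was the only call among 25 other rapid activity genes, against 2.15% of all 23764 probes called. Whether this call holds with the replicate block or with arrays left out was not checked. In the cerebellum *Sik1* was at 7.47, 7.06 and 4.43 in En2WT, the last not well above background, and at 8.44, 8.46 and 7.92 in En2KO. This was a difference of 1.96 ± 0.71 that did not pass (adjusted p = 0.515). Without that En2WT array the cerebellar difference was 1.01 ± 0.26 (adjusted p = 0.174). The difference between the regions' genotype effects was -0.37 ± 0.84 (adjusted p = 0.874), and without that array its sign turned, to 0.58 ± 0.32 (adjusted p = 0.485). No later activity gene, upstream factor or stress gene passed in the hippocampus. The lowest p among these was that of *Pdk4* of the stress list (1.11 ± 0.24, adjusted p = 0.0649).

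The genotype effects of the 2 regions were compared directly by the interaction term. Of 11 probes 0 were called by limma, against 0.102% of 25479, and 1 had an unadjusted p under 0.05, as had 11.3% of all probes. *Egr4* gave 0.87 ± 0.27 (95% CI 0.27 to 1.46, adjusted p = 0.318), from -0.57 in cerebellum and 0.29 in hippocampus. *Egr2* gave 1.18 ± 0.58 (adjusted p = 0.462) and *Arc* 0.75 ± 0.37 (adjusted p = 0.466). A difference of the genotype effect between the regions was therefore not shown for any of the 10 genes.

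Within some groups, most of the genes were high or low on the same array. All genes but *Egr3* were well above background on all 12 arrays, which left 9 genes, and each array was compared with the mean of its group. How many of all probes were lowest or highest on the same array was not counted. The counts below therefore do not tell a trait of these genes from one of the array. In En2KO hippocampus the array of replicate 1 was the lowest of 3 for 9 of 9 genes, with a mean deviation of -0.52, and that of replicate 2 the highest for 7 of 9, with 0.34. In En2WT hippocampus the array of replicate 1 was again the lowest, for 8 of 9 genes (-0.23). The En2WT cerebellum of replicate 3 was the highest of its group for 8 of 9 (0.34), while *Arc* was lowest there. In En2KO cerebellum no array stood apart in this way: the array of replicate 1 was the lowest for 4 of 9 genes and that of replicate 2 the highest for 5 and the lowest for 3. The En2KO hippocampal arrays of replicates 1 and 2 were also those with the highest and the lowest summed intensity of choroid plexus markers, 93188 and 4402, and the part of this tissue in the deviations was not tested.

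*Npas4* and *Fos* swung most in En2KO hippocampus, by -1.04 and -0.79 on the array of replicate 1. Over the 12 arrays, Pearson's r of a gene's deviations with the mean of the other 8 genes was 0.92 for *Egr1*, 0.88 for *Egr4*, 0.80 for both *Junb* and *Nr4a1*, 0.74 for *Fos*, 0.68 for *Npas4* and 0.65 for *Egr2*. *Fosb*, at 0.10, and *Arc*, at -0.14, did not follow the other genes. These correlations describe 12 arrays that share slides 4 by 4, and are given without a test.

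**Figure D5:**
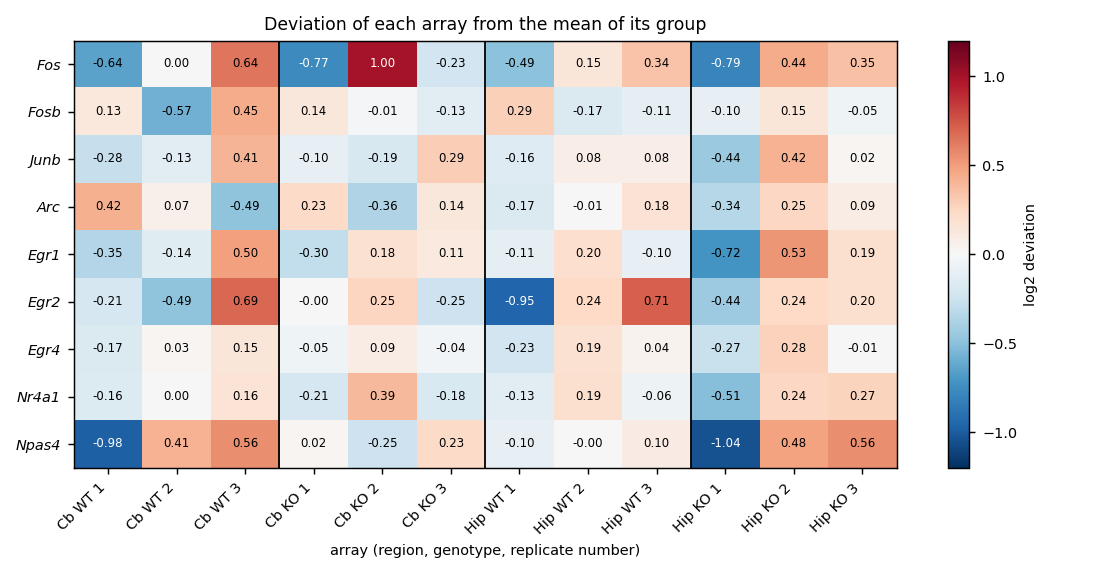
Log2 deviation of each array (columns; Cb, cerebellum; Hip, hippocampus; number, replicate) from the mean of its group for the 9 genes well above background on all 12 arrays (rows), from blue (lower) to red (higher). The column of En2KO hippocampus replicate 1 is below its group mean for all 9 genes, and the *Arc* row differs from the others in the cerebellum.

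The spread within groups differed in size as well. The median SD of the 9 genes was 0.43 in En2KO hippocampus and 0.46 in En2WT cerebellum, against 0.20 and 0.28 over all 21387 probes well above background on every array. It was 0.17 in En2WT hippocampus and 0.26 in En2KO cerebellum, against 0.26 and 0.26. The genes were thus more scattered than most probes in 2 of the 4 groups and not in the other 2, and no test was made of this.

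Of other activity genes measured on all arrays, 8 of 23 rapid ones (34.8%) and 5 of 15 later ones (33.3%) had r above 0.5 with the mean deviation of the 9 genes, against 13.4% of 13637 genes. Of the same lists 8 of the 23 rapid and 1 of the 15 later genes had r below 0, as had 6843 of the 13637. The highest were *Nr4a2* (r = 0.81), *Ier3* (0.80), *Homer1* (0.76) and *Fosl2* (0.74), whereas *Atf3* was at -0.52. The 8 probes most like the set by this measure, out of 21377, were those of *Nfxl1* (r = 0.97), *Ntm* (0.95), *BC006965* (0.94), *Atg4c* (0.94), *Egfr* (0.93), *Snrpd1* (0.93), *Nr2f1* (0.93) and *Mitd1* (0.93). None of these 8 was in a list of activity genes, and *Nr2f1* encodes a nuclear receptor of cortical patterning.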

How the data were processed

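Total RNA of entire cerebella and hippocampi was labelled with Cy3 and hybridized to one-colour Agilent 4x44K arrays. The authors deposited, per spot, the processed intensity of the scanner software, linear and already corrected for background. A table of log2 values, which the authors filtered and quantile normalized with Agi4x44PreProcess, was also deposited and served as an alternative. Its quantiles differed by a median of 0.278 between a hippocampal and a cerebellar array and by 0.008 between arrays of the hippocampus, so it was not used between regions.

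Control spots were dropped, as were those flagged as outliers. The log2 of the processed intensity was quantile normalized over 12 arrays, and spots of a probe were averaged. Gene names were those of the newer annotation, in the cerebellum files, which named 10.8% of spots differently from the older one. Probe positions in the files are on mm9. To be tested, a probe had to exceed background clearly on 3 of 3 arrays in 1 or more of the groups compared, and to have 2 or more values per group. Linear models (limma 3.58.1, R 4.3.3) gave moderated tests with Benjamini-Hochberg adjustment over all probes tested, at 0.05. Genotypes were compared within the 6 arrays of a region, and regions and the interaction in a fit of the 12. For a gene with several probes, the brightest stood for it in lists.

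The members, lists and named genes were chosen with earlier results of these data known. All 10 members are given with every probe. From each other list at most the 3 largest calls in each direction are named, or up to 2 with the lowest p where none passed. The rank product of the study's methods was run with 100 permutations as an alternative. The methods describe 3 mice per genotype, which were littermates, and the labels do not tie an array to a mouse, so p-values measure the spread between these arrays. Precision is limited by how few arrays there were. Replicate numbers coincided with slides by the file headers, and the deviations of arrays on 1 slide correlated from -0.29 to 0.43. With the replicate number as a block, the genotype calls over all probes in hippocampus fell from 510 to 134. The tests were run on simulated data with known changes first. Figures were drawn with matplotlib 3.10.9.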

Additional observations from a re-analysis of the deposited data

How the results depend on the processing

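The count of immediate early gene probes called higher in the hippocampus was 9 to 11 under every alternative of background correction, normalization, filter, probe choice and replicate block, with 9 where fewer probes could be tested. With arrays left out, no probe lost its call over both genotypes, but within a genotype *Fosb*, *Egr1* and *Npas4* lost theirs in some of the settings: *Fosb* in En2WT without the hippocampal array of replicate 1 (adjusted p = 0.0716), without the cerebellar array of replicate 2 (0.0637) or without replicate 1 (0.155) or 2 (0.102) as a whole, and in En2KO without the hippocampal array of replicate 2 (0.0525), the cerebellar array of replicate 3 (0.0567) or any replicate as a whole. *Egr1* and *Npas4* lost it in En2KO without replicate 2 (0.0741 and 0.145) or 3 (0.0671 and 0.0955). Leaving out a whole replicate number was chosen after seeing the data. Between genotypes 0 probes were called in either region, or by the interaction, under each of these alternatives, and the rank product called 1 in cerebellum (*Arc*) and 1 in hippocampus (*Egr2*). With the replicate number as a block no call of an immediate early gene changed: *Arc* in cerebellum had adjusted p = 0.342, *Egr4* there 0.63 and *Egr2* in hippocampus 0.133, and the interaction of *Egr4* 0.249. The difference of *Egr2* in hippocampus was 0.64 to 1.47 with arrays left out, of *Arc* in cerebellum -1.36 to -0.83 and of *Egr4* there -0.66 to -0.48.

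Some estimates turned sign, none of which had passed the test. Not all of them were near 0: with all arrays the genotype difference in cerebellum was 0.38 for *Fos* and 0.35 for *Egr3*. With other processing, the estimate that turned for the genotype difference in cerebellum was that of *Junb* (-0.036 with the 75th percentile). In hippocampus it was *Egr3* (0.0084 with either background correction, 0.048 with the 75th percentile) and *Npas4* (-0.0065 with the 75th percentile). For the interaction it was *Npas4* (0.011 with the local background subtracted, 0.010 with normexp), and with the 75th percentile *Egr1* (0.14), *Nr4a1* (0.17) and *Junb* (0.013). With arrays left out, the genotype difference in cerebellum ranged from -0.44 to 0.40 for *Egr2*, -0.17 to 0.87 for *Egr3*, -0.12 to 0.81 for *Fos*, -0.50 to 0.077 for *Fosb*, -0.10 to 0.26 for *Junb* and -0.24 to 0.59 for *Npas4*. In hippocampus it ranged from -0.15 to 0.47 for *Egr1*, -0.20 to 0.17 for *Egr3*, -0.32 to 0.040 for *Fosb*, -0.23 to 0.57 for *Npas4* and -0.12 to 0.29 for *Nr4a1*. The interaction ranged from -0.48 to 0.21 for *Egr1*, -1.05 to 0.17 for *Egr3*, -0.39 to 0.55 for *Fos*, -0.26 to 0.34 for *Fosb*, -0.78 to 0.76 for *Npas4* and -0.50 to 0.094 for *Nr4a1*, and the region difference of *Fos* in En2KO from -0.82 to 0.064. The cause of these changes was not tested.

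Over all probes, the 145 genotype calls in cerebellum became 58 without a filter, 93 with the strict filter, 232 in the 12-array fit and 1107 by rank product. The 510 in hippocampus became 163 without a filter, 200 with 1 probe a gene, 134 with the replicate block, 282 in the 12-array fit and 1013 by rank product. With 1 array left out they ranged from 53 to 110 in cerebellum, lowest without the En2KO array of replicate 3 and highest without the En2WT array of replicate 3, and from 81 to 356 in hippocampus, lowest without the En2WT and highest without the En2KO array of replicate 1. Leaving out the En2WT cerebellar array of replicate 3 for *Sik1* was chosen after seeing the data. The number of arrays and, for *Egr3* in cerebellum, the signal over background limit these values.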
